A study of Mus musculus with 70 samples.

Results

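Fmr1, its paralogs Fxr1 and Fxr2, and the partner genes Cyfip1 and Cyfip2 were followed in mice that lack 1 of the 2 isoforms of Capicua. These 5 genes were taken by symbol from the 50789 genes of the deposited count table. The set was chosen by the Fmr1 counts of these same samples, in which Fmr1 RNA had been seen slightly lower in both knockouts in all 3 tissues. The 6 comparisons of Fmr1 with wild type are therefore given as a description, without a test, and support nothing here.

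Capicua, the product of Cic, is a transcriptional repressor made in a long and a short form. Bulk RNA was sequenced from 3 genotypes: mice without the short form (Cic-S-KO), mice without the long form (Cic-L-KO), and littermates with both forms (WT). The WT groups pool littermates of both lines, and the labels do not say from which line each WT sample came. Lung was collected at postnatal day 6 (P6), and the 2 brain regions, cortex and cerebellum, from 12-week-old mice. Each of the 9 groups held 8 samples, except Cic-S-KO cortex and Cic-S-KO cerebellum with 7 each, 70 in all. The labels name no Cre, transgene or treatment. They call the samples replicates without saying that each is a separate animal, so p-values measure the spread between these samples. Lung formed batch 1 and both brain regions batch 2. Lung and brain differ in tissue, age and batch, which cannot be told apart, so no test was made between them.

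FMRP, the protein of Fmr1, binds messenger RNAs on ribosomes and in transport granules and represses the translation of many of them, above all in neurons. Loss of FMRP causes fragile X syndrome. FXR1 and FXR2 share its RNA-binding domains and can form complexes with it. CYFIP1 and CYFIP2 bind FMRP, CYFIP1 also binds the cap-binding protein eIF4E, and both are interchangeable subunits of the WAVE regulatory complex, which controls branched actin at synapses and at the leading edge of cells.

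Total counts per sample ranged from 17798655 to 35523037, and levels are given as CPM, counts scaled to the TMM-normalised size of the library. TMM was run within each tissue, so CPM of different tissues are not on a common scale. All 5 members passed the filter on low counts in every tissue. Lung libraries carried 15100 to 22100 CPM of summed alveolar type 2 cell markers, and WT cortex 5160 to 5770 CPM of summed neuron markers. The lung Cic-S-KO replicate 5 stood apart, with 37.7 CPM of neuron markers against 1.94 to 5.24 CPM in the other 23 lung libraries. The lung Cic-S-KO values of Fmr1, Cyfip2 and some listed genes are given without it too. All other lung results for Cic-S-KO include it, unless a left-out library is named. Library numbers 1 to 4 (34 samples) held 156.7 to 300.2 CPM of Y-linked transcripts and at most 1.24 CPM of Xist. Numbers 5 to 8 (36 samples) held at most 0.144 CPM of Y-linked transcripts and 594 to 1133 CPM of Xist. By these RNAs the sets separate as male and female samples, although the labels used here give no sex. The 2 sets of numbers are also read separately below. Reads over the whole Cic gene cannot separate its isoforms and so check no label. By edgeR's quasi-likelihood test with Benjamini-Hochberg adjustment over all genes, Cic was higher in Cic-S-KO lung (log2 fold change 0.31, adjusted p = 6.41e-05) and cortex (0.63, 1.35e-12). It was also higher in Cic-L-KO cortex (0.88, 9.49e-18) and cerebellum (0.15, 0.0253).

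Fmr1 (ENSMUSG00000000838.17) lies on the plus strand of the X chromosome, chrX:68678541-68717963 in GRCm38, with 8966 bases of exon. In CPM, which was scaled apart in each tissue, its WT medians lay between 99.6 and 104 in the 3 tissues. WT lung samples ran from 90.4 to 115 CPM with a median of 104. WT cortex samples ran from 92.1 to 107 CPM with a median of 99.6, and WT cerebellum samples from 93.9 to 107 CPM with a median of 99.6. These ranges overlapped throughout. Between cortex and cerebellum the WT log2 difference was 0.091, adjusted p = 0.0521 by edgeR's quasi-likelihood test, while RLE normalization and DESeq2 put it at 0.12 with adjusted p = 0.00877 and 0.00842. With genotype and number as a block over both regions it was 0.09, adjusted p = 0.0329.

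The stretch before the RefSeq start of Fmr1 is shown because Fmr1 is the gene lower in all 6 comparisons, and that before the RefSeq start of Cyfip2 because Cyfip2 had the largest tested difference among the members. RefSeq promoter windows of GRCm38.p6 were matched for 4 of the 5 members, and the 250 bases before the start were searched on both strands. The motifs were the Capicua octamer (TGAATGAA, TGAATGGA, TCAATGAA or TCAATGGA), the NRF-1 palindrome (the longest run of capitals below), the E-box CACGTG and the GC box GGGCGG. Capitals mark matches. RefSeq and the gene annotation used for the spans place some starts apart: the RefSeq start of Cyfip2 (position 46312358) lies inside the span given for the gene below, so its window does too, and the Fxr1 window reaches into its gene's span.
Fmr1, chrX:68678291-68678540, plus strand: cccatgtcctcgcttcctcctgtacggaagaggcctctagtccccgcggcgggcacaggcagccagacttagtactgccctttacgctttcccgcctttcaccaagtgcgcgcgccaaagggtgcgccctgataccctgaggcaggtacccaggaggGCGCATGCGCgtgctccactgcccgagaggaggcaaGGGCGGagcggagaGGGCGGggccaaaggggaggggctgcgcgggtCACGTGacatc
Cyfip2, chr11:46312359-46312608, minus strand: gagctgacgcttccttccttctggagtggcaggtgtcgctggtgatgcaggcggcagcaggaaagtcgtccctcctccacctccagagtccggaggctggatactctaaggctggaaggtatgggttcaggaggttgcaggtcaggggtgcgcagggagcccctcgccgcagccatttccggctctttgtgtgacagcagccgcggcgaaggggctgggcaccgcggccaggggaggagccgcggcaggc
The Fmr1 window held 1 NRF-1 palindrome, 1 E-box and 2 GC boxes. Of 32544 promoter windows of the same length, 0.784% held the palindrome, 6.03% the E-box and 33.0% the GC box. The Fxr1 window held 7 GC boxes and the Fxr2 window 2, while the Cyfip2 window held none of the 4 motifs. The Capicua octamer, found in 3.13% of all windows, was in none of the 4 members' windows, which says only that these letters are not there.

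In lung, Fmr1 stood at 83.4 to 98.1 CPM in Cic-S-KO (median 93.5) and at 86.7 to 95.9 CPM in Cic-L-KO (median 92.7), beside the WT median of 104. Both knockout ranges overlapped WT, with 2 of 8 Cic-S-KO and 3 of 8 Cic-L-KO samples below every WT sample. In the fit the log2 fold change was -0.17 for Cic-S-KO (95% interval -0.26 to -0.085, fold 0.887) and -0.18 for Cic-L-KO (-0.27 to -0.092, fold 0.883). Cic-S-KO and Cic-L-KO lung differed from each other by 0.007 (interval -0.081 to 0.095), adjusted p = 0.949 by edgeR's quasi-likelihood test. Without lung Cic-S-KO replicate 5 the Cic-S-KO value was -0.19 (-0.28 to -0.10).

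In the brain the values were lower in Cic-L-KO than in Cic-S-KO. In cortex, Cic-S-KO samples ran from 81.2 to 99.5 CPM (median 85.7) and Cic-L-KO samples from 76.2 to 89.4 CPM (median 81.1). All 8 Cic-L-KO samples and 4 of 7 Cic-S-KO samples lay below every WT sample. Among all genes tested, every sample lay below every WT sample for 7.25% in Cic-L-KO cortex and for 0.524% in Cic-S-KO cortex. The log2 fold change was -0.16 for Cic-S-KO (-0.26 to -0.071) and -0.29 for Cic-L-KO (-0.38 to -0.20, fold 0.816).

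Cerebellum gave the same order. Fmr1 ran from 79.3 to 99.9 CPM in Cic-S-KO (median 88.8) and from 76.7 to 86.9 CPM in Cic-L-KO (median 83.0). All 8 Cic-L-KO samples and 6 of 7 Cic-S-KO samples lay below every WT sample, and among all genes 1.65% in Cic-L-KO and 0.469% in Cic-S-KO had every cerebellum sample below WT. The log2 fold change was -0.15 for Cic-S-KO (-0.24 to -0.074) and -0.27 for Cic-L-KO (-0.35 to -0.19, fold 0.831).

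Fmr1 was also compared between the knockouts. That contrast did not choose the gene, but it is made of knockout values that did. Its adjusted p values are therefore read as a description. In cortex Cic-S-KO samples held more Fmr1 than Cic-L-KO samples, by 0.13 on the log2 scale (interval 0.037 to 0.22), adjusted p = 0.0267 by edgeR's quasi-likelihood test, in a contrast that called 33.9% of all genes. Leaving out 1 library at a time gave 0.10 to 0.15 and adjusted p between 0.0122 and 0.0853. The call was lost without Cic-L-KO replicate 4 or 6 or Cic-S-KO replicate 1, 4 or 5. In cerebellum the difference was 0.11 (0.033 to 0.19), adjusted p = 0.0564, while 12.4% of all genes were called. The effect on Fmr1 did not pass edgeR's test of difference between cortex and cerebellum. For Cic-S-KO the log2 difference was -0.012 (interval -0.14 to 0.11, adjusted p = 0.947), with 4.5% of all genes called. For Cic-L-KO it was -0.025 (-0.15 to 0.097, adjusted p = 0.81), with 23.0% called. These differences are made of values that chose Fmr1 for being lower in both regions, so the lack of a difference supports nothing.

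**Figure D1:**
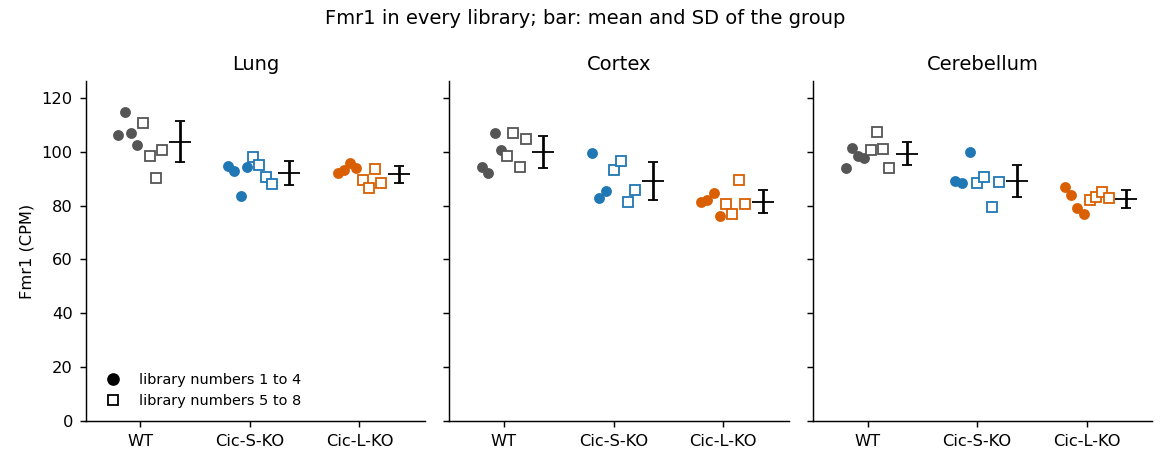
Fmr1 CPM (y axis, from 0) in every library by tissue and genotype (x axis); filled circles are library numbers 1 to 4, open squares 5 to 8, and bars the group mean and SD. All Cic-L-KO cortex and cerebellum samples lie below the lowest WT sample, 92.1 and 93.9 CPM, whereas the lung groups overlap. Among all genes tested, 7.25% in Cic-L-KO cortex and 1.65% in Cic-L-KO cerebellum lie so.

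The 2 sets of library numbers were fitted apart for Fmr1. In lung, the Cic-S-KO value was -0.24 in numbers 1 to 4 (-0.37 to -0.12) and -0.11 in numbers 5 to 8 (-0.24 to 0.022). In cortex, Cic-L-KO gave -0.27 and -0.31. In cerebellum, Cic-S-KO gave -0.085 in numbers 1 to 4 (-0.21 to 0.044) and -0.21 in numbers 5 to 8, and Cic-L-KO gave -0.27 in both. The intervals of lung Cic-S-KO in 5 to 8 and cerebellum Cic-S-KO in 1 to 4 thus reached 0. A test of the difference between the sets covered the 5 members and 6 comparisons. It gave 0 of 30 past the threshold by edgeR, with a lowest adjusted p of 0.474. Over all genes the same test called 0.0781% in Cic-S-KO cerebellum and 0 in every other comparison. The 0 of 30 therefore does not show that the sets agree. At an unadjusted p under 0.05 there were 3 differences among the 30: Cyfip2 in lung Cic-S-KO, and Fxr1 in lung Cic-S-KO and Cic-L-KO.

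All 84 values of Fmr1 over the 6 comparisons and the settings tried were negative. They come from the same counts that chose Fmr1 for being lower, so their shared sign supports nothing. Among settings that kept all libraries, removing each library's trend with GC content moved them most. With that offset Cic-S-KO values were -0.12 (lung), -0.098 (cortex) and -0.12 (cerebellum), and Cic-L-KO values -0.098, -0.20 and -0.18. The longest annotated transcript of Fmr1 has a GC content of 39.2%. Over 12714 protein-coding genes tested in all 3 tissues the median was 50%, with an interquartile range of 45.0% to 54.8%. The part of GC content in the lower Fmr1 values was not tested beyond this offset.

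**Figure D2:**
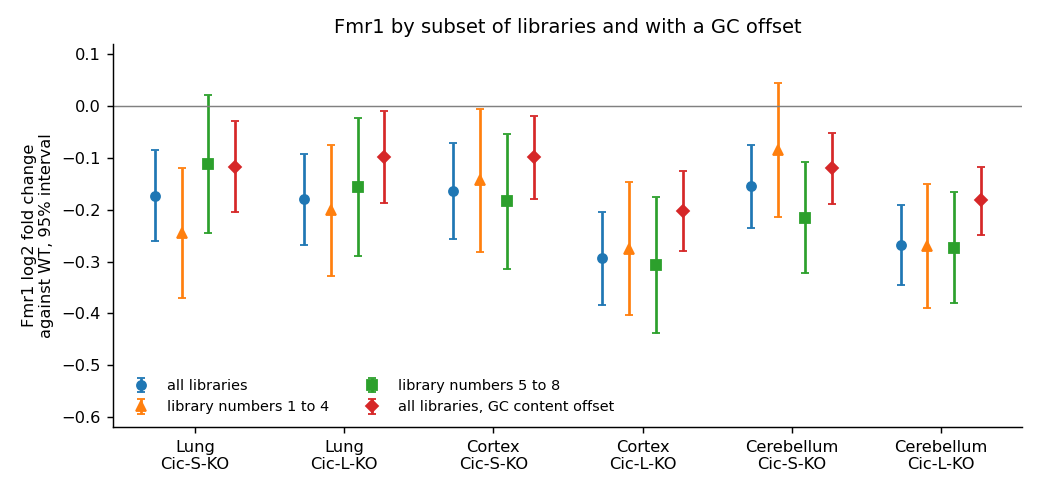
Log2 fold change of Fmr1 against WT with its 95% interval (y axis) in the 6 comparisons (x axis), fitted over all libraries, library numbers 1 to 4, numbers 5 to 8, and all libraries with the GC offset. Every point is below 0, with intervals reaching 0 for lung Cic-S-KO in numbers 5 to 8 and cerebellum Cic-S-KO in numbers 1 to 4, and the offset values in Cic-L-KO brain lie at -0.20 and -0.18.

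Genes whose RNA followed Fmr1 most closely were ranked by Pearson's r of log2 CPM over the 70 samples. After subtracting the tissue mean they were Syncrip (r = 0.869), an RNA-binding protein of transport granules, Pum2 (0.859), a translational repressor, Mtpn (0.828), the scaffold gene Dlg1 (0.818) and Exoc5 (0.814), a subunit of the exocyst. After subtracting the group mean, which leaves only variation within groups, they included Mtmr1 (0.729), Dhx15 (0.693), Nr3c1 (0.685) and Arih1 (0.669). The ranking after subtracting the tissue mean keeps the genotype differences. It therefore rests in part on the lower Fmr1 values that chose the gene. None of the other 4 members was among the highest: the highest r of Fmr1 with a member was 0.343, with Fxr1, and 0.335, with Cyfip2 within groups. Samples share library, depth and base composition across genes. The longest transcripts of the genes named have GC contents of 37.0% to 43.9%, all under the median of 50% over protein-coding genes.

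Of 5 listed X-chromosome genes around Fmr1, those that passed were lower, except Aff2 in Cic-L-KO cortex. The annotated genes nearest to Fmr1 on either side are Fmr1os and Fmr1nb, so the listed genes tested are not adjacent to it. Fmr1nb, also listed, had too few counts to be tested. The median log2 fold change of the 3 listed genes tested in lung, or 4 in brain, was negative in every comparison with WT. It ran from -0.208 in Cic-L-KO lung to -0.0395 in Cic-S-KO cerebellum. The medians over all genes ran from -0.00104 to 0.0114. Fmr1os, on the other strand 142 bases before Fmr1, averaged only 0.122 to 0.282 CPM per group. Of the 3 listed genes tested in lung, 0 passed in Cic-L-KO, where 4.89% of all genes were called. Aff2 (log2 fold change -0.47, adjusted p = 0.0286) and Ids (-0.13, 0.038) were lower in Cic-S-KO, where 15.7% of all genes were called. Of 4 tested in the brain, against 43.2% of all genes called in Cic-L-KO cortex, 21.5% in Cic-L-KO cerebellum, 6.53% in Cic-S-KO cortex and 8.23% in Cic-S-KO cerebellum, Slitrk4 was lower in Cic-L-KO cortex (-0.60, adjusted p = 1.26e-11), Cic-L-KO cerebellum (-0.53, 1.54e-05) and Cic-S-KO cerebellum (-0.33, 0.00744). Slitrk2 was lower in Cic-S-KO cortex (-0.15, 0.0382) and Cic-L-KO cerebellum (-0.21, 0.00144), and Aff2 was higher in Cic-L-KO cortex (0.35, 0.000232). All 3 genes encode proteins known from neurons, and these adjusted p come from edgeR's fits over all genes.

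Neither paralog passed in any comparison with WT. Fxr1 (ENSMUSG00000027680.15, chr3:34019943-34070322, plus strand), whose protein is best known from muscle, stood at 93.0 to 122 CPM in WT lung, 61.3 to 76.2 CPM in WT cortex and 81.4 to 99.8 CPM in WT cerebellum. Its cortex medians were 66.1, 62.5 and 63.5 CPM for WT, Cic-S-KO and Cic-L-KO, and its cerebellum medians 86.0, 83.2 and 81.0 CPM. All these ranges overlapped, although 4 of 8 Cic-L-KO cerebellum samples lay below every WT sample. By edgeR's quasi-likelihood test the widest difference from WT was -0.11 in Cic-L-KO cerebellum (interval -0.19 to -0.023), adjusted p = 0.0613. That value lay between -0.10 and -0.11 with adjusted p of 0.0411 to 0.0498 under DESeq2, a stricter count filter, a fit of only the compared genotypes, and a covariate for Y-linked expression or for the set of library numbers. It was -0.019 (adjusted p = 0.788) with the GC offset, -0.063 (0.416) in library numbers 1 to 4 and -0.16 (0.109) in 5 to 8. The longest Fxr1 transcript, like that of Fmr1, is low in GC, at 39.4%. In lung the differences were -0.036 (adjusted p = 0.647) and -0.038 (0.691).

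Fxr1 in WT samples was given by set of library numbers as well: means were 102 and 114 CPM in lung, 64.2 and 69.3 CPM in cortex, and 82.8 and 91.6 CPM in cerebellum for numbers 1 to 4 and 5 to 8. The difference in the fit was 0.17, 0.11 and 0.15 on the log2 scale, with adjusted p of 0.758, 0.566 and 0.322 by edgeR. A share of 2.72% of its exon bases overlaps Dnajc19 on the other strand. Whether counting used strand is not given in the sources used here.

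Fxr2 (ENSMUSG00000018765.5, chr11:69632990-69653297, plus strand), a neuronal FMRP partner, stood at 95.3 to 113 CPM in WT lung (median 107), 122 to 151 CPM in WT cortex (median 140) and 170 to 190 CPM in WT cerebellum (median 179). Its knockout group means were 103 CPM in both lung groups, 145 and 142 CPM in Cic-S-KO and Cic-L-KO cortex, and 175 and 183 CPM in cerebellum. The 6 log2 differences from WT ran from -0.043 to 0.070, the lowest adjusted p was 0.216, and none passed.

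Per length, Fxr2 was the highest of the 3 family members in every tissue. RPKM divides CPM by the joined length of all annotated exons, which need not be the length of the transcripts expressed. WT cortex held 36.7 ± 2.27 RPKM of Fxr2, 11.1 ± 0.667 of Fmr1 and 10.2 ± 0.689 of Fxr1 (SD, n = 8). In WT cerebellum the values were 47.8 ± 1.79, 11.1 ± 0.485 and 13.3 ± 0.914. In WT lung they were 28.0 ± 1.44, 11.6 ± 0.848 and 16.5 ± 1.37. Per this length Fxr1 exceeded Fmr1 in lung and cerebellum, while in cortex the SDs of the 2 overlapped. The order depends on the lengths used. In CPM, WT means of Fmr1 and Fxr1 were 99.3 and 87.2 in cerebellum and 99.9 and 66.7 in cortex. Lung CPM means in WT were 104 for Fmr1, 108 for Fxr1 and 105 for Fxr2. Between WT cortex and WT cerebellum, a contrast that called 73.5% of all genes, Fxr1 was 0.30 lower on the log2 scale in cortex (adjusted p = 1.59e-08 by edgeR) and Fxr2 0.30 lower (4.65e-13). The summed level of the family in cortex was 58.0, 58.1 and 56.6 RPKM for WT, Cic-S-KO and Cic-L-KO. The share of Fmr1 in it was 19.2% ± 1.19 (SD, n = 8) in WT cortex, 17.1% in Cic-S-KO and 16.1% ± 0.843 (SD, n = 8) in Cic-L-KO. In cerebellum the share was 15.4% in WT and 13.1% in Cic-L-KO. These shares hold the Fmr1 values that chose the gene and were not tested.

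**Figure D3:**
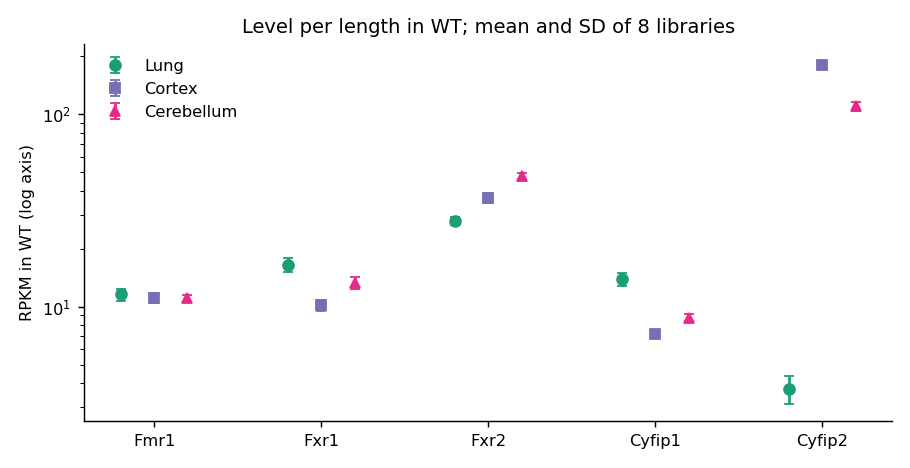
Level per length of the 5 members in WT lung, cortex and cerebellum (RPKM, log y axis); points are means and bars SD over 8 samples. Cyfip2 runs from 3.74 RPKM in lung to 181 RPKM in cortex, while Fmr1 stays between 11.1 and 11.6 RPKM. Library scaling was set within each tissue, and lengths are those of all annotated exons.

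Cyfip1 (ENSMUSG00000030447.15, chr7:55841745-55932602, plus strand) was higher in Cic-L-KO cerebellum than in WT. WT cerebellum samples ran from 98.9 to 111 CPM (median 103), Cic-S-KO from 102 to 114 CPM (median 104) and Cic-L-KO from 107 to 120 CPM (median 112). The WT and Cic-L-KO ranges overlapped, with 5 of 8 Cic-L-KO samples above every WT sample. The log2 fold change was 0.11 (interval 0.039 to 0.17, fold 1.08), adjusted p = 0.0203 by edgeR's quasi-likelihood test, in a comparison that called 21.5% of all genes and 10.9% as higher. Leaving out each library in turn kept the call, at 0.095 to 0.12. With no filter on low counts adjusted p was 0.0826, and within either set of library numbers it was 0.212 and 0.226 at a like size of 0.11 and 0.098. Cic-S-KO cerebellum differed from WT by 0.013 (adjusted p = 0.861). Endothelial markers moved with the Cic-L-KO group: 4 of 4 were higher, with sums of 87.7 to 106 CPM against 47.9 to 75.1 CPM in WT, and 3 of 3 tested genes of a lung fibroblast list were higher too. Their part in the Cyfip1 result was not tested.

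In cortex Cyfip1 ran from 80.9 to 90.9 CPM in WT (median 86.1) and from 85.9 to 99.2 CPM in Cic-L-KO (median 89.5), with 3 of 8 above every WT sample. The log2 fold change of 0.082 (0.012 to 0.15) had an adjusted p of 0.053 by edgeR. It passed with DESeq2 (0.081, adjusted p = 0.0481), a stricter count filter (0.10, 0.0145) and the GC offset (0.11, 0.00994). In lung, WT samples ran from 151 to 193 CPM, Cic-S-KO from 146 to 163 CPM and Cic-L-KO from 160 to 185 CPM, so all 3 groups overlapped. Neither knockout passed against WT there (-0.095, adjusted p = 0.139, and 0.036, adjusted p = 0.689). Cic-S-KO lay 0.13 below Cic-L-KO (interval 0.041 to 0.22 below), adjusted p = 0.0496, where 12.2% of all genes were called. That call was lost when any of 13 of 16 libraries was left out, all but Cic-L-KO replicates 3 and 5 and Cic-S-KO replicate 8, with adjusted p from 0.0291 to 0.115. Exons of Nipa2 on the other strand cover 11% of the exon bases of Cyfip1. Nipa2 was lower in Cic-L-KO cortex (-0.15, adjusted p = 0.00315 by edgeR) and did not pass in the other 5 comparisons.

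Cyfip2 (ENSMUSG00000020340.16, chr11:46193850-46312859, minus strand) had the largest tested differences of the 4 members: it was lower in Cic-L-KO cortex and higher in Cic-S-KO lung. WT cortex samples ran from 1220 to 1382 CPM (median 1264), Cic-S-KO cortex from 1137 to 1320 CPM (median 1245) and Cic-L-KO cortex from 950 to 1058 CPM (median 1044). All 8 Cic-L-KO samples lay below every WT and every Cic-S-KO sample, while WT and Cic-S-KO overlapped. Among all genes tested, every Cic-L-KO cortex sample lay below every WT sample for 7.25%. The share below every Cic-S-KO sample was not counted. The log2 fold change in Cic-L-KO cortex was -0.32 (interval -0.39 to -0.26, fold 0.799), adjusted p = 2.87e-09 by edgeR's quasi-likelihood test. That comparison called 43.2% of all genes, 21.9% as lower. Cic-S-KO cortex differed from WT by -0.045 (adjusted p = 0.464) and from Cic-L-KO by 0.28 (0.21 to 0.35, adjusted p = 1.15e-07). The Cic-L-KO value was -0.32 in library numbers 1 to 4 and in 5 to 8 alike, and -0.33 to -0.30 when single libraries were left out.

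In cerebellum Cyfip2 ran from 716 to 844 CPM in WT (median 778), 789 to 857 CPM in Cic-S-KO (median 827) and 707 to 810 CPM in Cic-L-KO (median 743). The 3 groups overlapped, and neither knockout passed against WT (0.073, adjusted p = 0.217, and -0.065, adjusted p = 0.196). Cic-S-KO cerebellum held more Cyfip2 than Cic-L-KO cerebellum, by 0.14 (0.064 to 0.21), adjusted p = 0.0115. The Cic-L-KO effect was more negative in cortex than in cerebellum by 0.26 (0.16 to 0.36), adjusted p = 8.55e-05 in a brain fit that called 23.0% of all genes. In WT, Cyfip2 was 1.74-fold higher in cortex than in cerebellum (adjusted p = 1.72e-26). All are from edgeR's quasi-likelihood test.

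The sum of 4 general neuron markers lay below WT in every brain knockout group, while Cyfip2 passed against WT only in Cic-L-KO cortex. Over Rbfox3, Snap25, Syt1 and Tubb3 the sums ran from 5160 to 5770 CPM in WT cortex. They were 4400 to 4910 CPM in Cic-S-KO cortex, with 2 of 4 markers lower beside 6.53% of all genes called. In Cic-L-KO cortex they were 3620 to 4330 CPM, with 4 of 4 lower beside 43.2% called, 21.9% as lower. Of 3 cortical excitatory neuron markers, 0 passed in Cic-S-KO cortex (mean sum 1840 CPM, 1870 CPM in WT). In Cic-L-KO cortex 2 of these 3 were lower (mean sum 1460 CPM). In cerebellum the sums of the 4 general markers were 3650 to 4200, 2990 to 3640 and 3180 to 3620 CPM, with 3 of 4 lower in each knockout. Of all genes, 8.23% were called in Cic-S-KO cerebellum, 21.5% in Cic-L-KO cerebellum. Granule cell markers were 3 of 4 lower in Cic-S-KO cerebellum, 1 of 4 in Cic-L-KO cerebellum. Purkinje cell markers had 0 of 4 lower in either, with 1 higher in Cic-S-KO cerebellum. Fewer neurons and less of these RNAs per neuron cannot be told apart in bulk tissue, and the part of neuron content in the values of Cyfip2 or Fmr1 was not tested. Fndc9 lies inside Cyfip2 on the other strand and shares 0 exon bases with it. It rose from 3.86 to 8.62 CPM in Cic-L-KO cortex (log2 fold change 1.16, adjusted p = 1.1e-08 by edgeR), opposite in direction to Cyfip2.

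In lung Cyfip2 was low and went the other way. WT samples ran from 20.6 to 32.1 CPM (median 27.1), Cic-S-KO from 29.1 to 42.7 CPM (median 32.3) and Cic-L-KO from 23.9 to 34.6 CPM (median 29.3). The groups overlapped, with 4 of 8 Cic-S-KO samples above every WT sample. The log2 fold change in Cic-S-KO was 0.35 (0.15 to 0.54, fold 1.27), adjusted p = 0.0147 by edgeR, in a comparison that called 15.7% of all genes and 9.99% as higher. The highest sample, 42.7 CPM, was replicate 5, the library with 37.7 CPM of neuron markers. Without it the value was 0.28 (0.094 to 0.48), adjusted p = 0.0396. In library numbers 1 to 4 it was 0.14 (-0.098 to 0.37, adjusted p = 0.492) and in 5 to 8 it was 0.55 (0.27 to 0.83, adjusted p = 0.0369). The difference between the sets was 0.41 with an unadjusted p of 0.0312 and an adjusted p of 0.953. Leukocyte markers also moved: 2 of 3 were higher in Cic-S-KO lung, with sums of 1420 to 3390 CPM against 1370 to 1960 CPM in WT, and their part in the result was not tested. Cic-L-KO lung differed from WT by 0.12 (adjusted p = 0.529), where 4.89% of all genes were called.

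**Figure D4:**
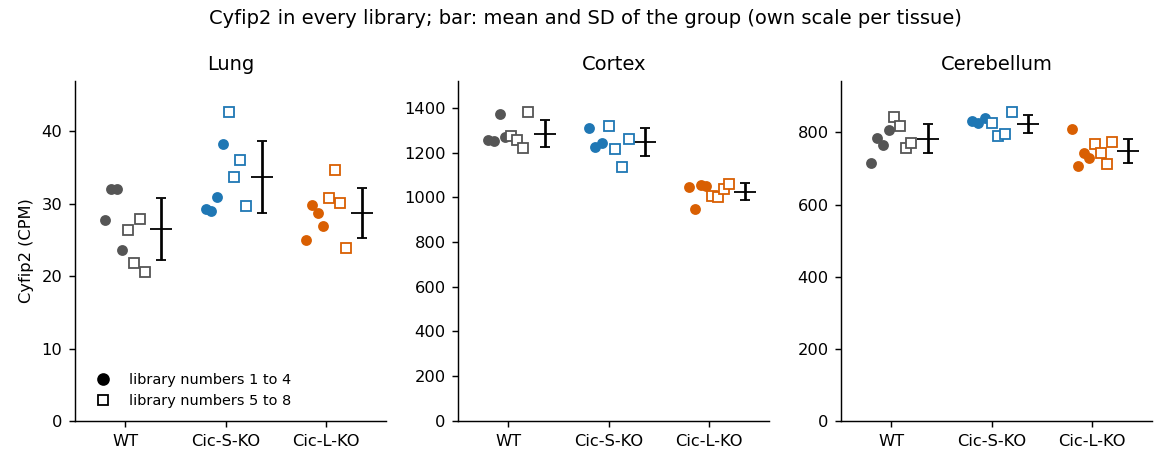
Cyfip2 CPM in every library by genotype (x axis), with a y axis from 0 of its own for each tissue; filled circles are library numbers 1 to 4, open squares 5 to 8, and bars the mean and SD. Cic-L-KO cortex samples, at most 1058 CPM, lie below all WT samples, as for 7.25% of all genes tested. Lung Cic-S-KO reaches 42.7 CPM in replicate 5.

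Across the 4 members other than Fmr1, 3 of 24 comparisons with WT passed: Cyfip2 lower in Cic-L-KO cortex, Cyfip2 higher in Cic-S-KO lung and Cyfip1 higher in Cic-L-KO cerebellum. The background ran from 4.89% of all genes in Cic-L-KO lung to 43.2% in Cic-L-KO cortex, with 6.53% in Cic-S-KO cortex and 8.23% in Cic-S-KO cerebellum. Per length of all annotated exons, Cyfip2 made up 96.2% of the summed Cyfip RPKM in WT cortex and 92.6% in WT cerebellum. In WT lung it made up 21.1% ± 2.58 (SD, n = 8). In Cic-S-KO lung its share was 26.6% ± 3.24 (SD, n = 8). Summed Cyfip RPKM in cortex was 188 in WT and 152 in Cic-L-KO.

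**Figure D5:**
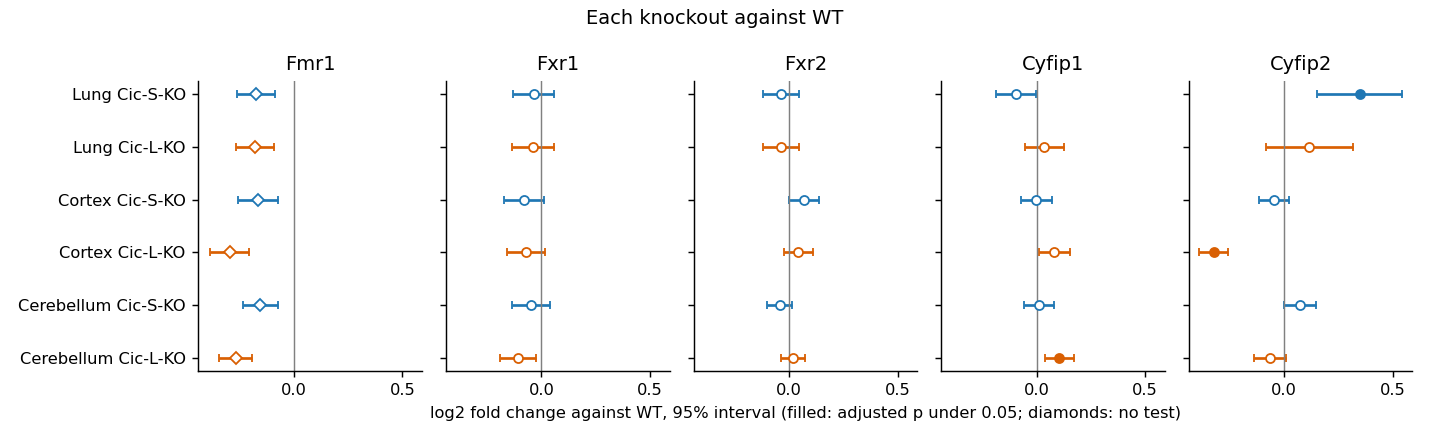
Log2 fold change against WT (x axis) with its 95% interval for each member in the 6 comparisons; filled points passed adjusted p under 0.05, open points did not, and diamonds are Fmr1, which was not tested. Cyfip2 in Cic-L-KO cortex (-0.32) and Cic-S-KO lung (0.35) and Cyfip1 in Cic-L-KO cerebellum (0.11) are filled.

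The other subunits of the WAVE complex were read from a list of 10 genes, of which 9 were tested in lung and cortex and 8 in cerebellum. In Cic-L-KO cortex, where 43.2% of all genes were called, 2 were higher and 4 lower, with a median log2 fold change of -0.015 against 0.011 over all genes. Nckap1, the subunit that pairs with CYFIP, fell from 694 to 551 CPM (-0.33, adjusted p = 1.47e-09 by edgeR). Wasf1, the neuronal WAVE protein, fell from 255 to 195 CPM (-0.39, adjusted p = 1.05e-08). Nckap1 was also lower in Cic-L-KO cerebellum (-0.12, 0.00817), Cic-S-KO cortex (-0.11, 0.0489) and Cic-S-KO lung (-0.21, 0.00351). Nckap1l, its form in blood cells, was at 24.7 CPM in WT lung and rose to 39.3 CPM in the Cic-S-KO lung (0.67, adjusted p = 4.81e-05; 0.62 without replicate 5) and was 0.32 higher in Cic-L-KO lung (0.0466). Wasf3 was higher in Cic-S-KO and Cic-L-KO cerebellum (0.15, adjusted p = 0.0292, and 0.21, 0.000477). The higher genes in Cic-L-KO cortex were Wasf3 and Nckap1l. In Cic-S-KO lung 1 gene was higher and 1 lower (15.7% of all genes called), in the Cic-L-KO lung 1 and 0 (4.89%) and in Cic-S-KO cortex 0 and 1 (6.53%). In Cic-S-KO cerebellum the counts were 1 and 0 (8.23%), and in Cic-L-KO cerebellum 1 and 2 (21.5%).

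Of 15 genes for partners of FMRP in ribonucleoprotein particles and translation, all were tested in every tissue. In Cic-L-KO cortex 6 were lower and 2 higher, beside 43.2% of all genes called, with a median of -0.081 against 0.011 over all genes. Eif4e, the cap-binding protein bound by CYFIP1, was lower in Cic-L-KO cortex (134 to 115 CPM, log2 fold change -0.23, adjusted p = 1.2e-06 by edgeR), Cic-S-KO cortex (-0.15, 0.00763), Cic-L-KO lung (-0.17, 0.0183) and Cic-S-KO lung (-0.14, 0.017). Mov10, an RNA helicase, was higher in Cic-L-KO cortex (7.70 to 12.9 CPM, 0.75, adjusted p = 5.82e-06). Caprin1, a protein of RNA granules, was lower in Cic-S-KO cortex (-0.13, 0.0253), and Tdrd3, a partner of FMRP, in Cic-S-KO lung (-0.25, 0.000455). Caprin1 and Tdrd3 were lower in Cic-L-KO cortex too. The list had 3 lower genes in Cic-S-KO cortex (6.53% of all genes called), 2 in the lung of Cic-S-KO mice (15.7%), 1 in the lung of Cic-L-KO mice (4.89%) and 3 in Cic-L-KO cerebellum (21.5%), with 0 higher in each. The last included Nufip2 (-0.21, 0.011) and Nufip1 (-0.22, 0.0321), which bind FMRP. In Cic-S-KO cerebellum 0 of 15 passed, beside 8.23% of all genes.

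Messenger RNAs known as FMRP targets went in both directions. Of 15 tested in the brain, 3 were higher and 7 lower in Cic-L-KO cortex, where 43.2% of all genes were called, with a median of -0.19 against 0.011 over all genes. Neuron markers were 4 of 4 lower in the same comparison, with a median of -0.39, and their part in the values of these lists was not tested. Camk2a, the synaptic kinase, fell there from 4130 to 2860 CPM (log2 fold change -0.53, adjusted p = 2.99e-09 by edgeR). Kcnc1, a potassium channel, rose from 267 to 323 CPM (0.28, adjusted p = 1.75e-07), but was lower in the cerebellum of each knockout. In Cic-S-KO cortex (6.53% of all genes called) 1 was lower, the glutamate receptor subunit Grin2a (-0.27, 0.012). Grin2a was lower in Cic-L-KO cortex and Cic-L-KO cerebellum as well. In Cic-S-KO cerebellum (8.23%) 2 were higher and 2 lower, with Camk2a at 0.40 (0.00111) and the potassium channel Kcnd2 at -0.45 (0.00172). Kcnd2 was also lower in Cic-L-KO cortex and Cic-L-KO cerebellum. In Cic-L-KO cerebellum (21.5%) 3 were higher and 4 lower, with the synaptic scaffold Shank1 at 0.32 (0.000319) and App, the amyloid precursor, at 0.12 (0.00319). App was lower in Cic-L-KO cortex. Of 13 tested in lung, 1 was higher and 1 lower in each knockout, beside 15.7% (Cic-S-KO) and 4.89% (Cic-L-KO) of all genes called. In Cic-S-KO these were the protease Mmp9 (1.20, adjusted p = 0.00889) and Shank3 (-0.25, 0.00583), which passed without replicate 5 too, at 1.13 and -0.25; Dlg4, a synaptic scaffold, then passed as well (-0.18, 0.0252). In Cic-L-KO they were Sod1 (0.21, 0.0313) and Gria1 (-0.83, 0.00507). Sod1 was lower and Gria1 higher in Cic-L-KO cortex, and Gria1 was higher in Cic-S-KO cerebellum.

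The last list followed the route from group 1 metabotropic glutamate receptors to translation, on which FMRP acts. Of 13 tested in the brain, 1 was higher and 3 lower in Cic-L-KO cortex (43.2% of all genes called), and 2 higher and 3 lower in Cic-L-KO cerebellum (21.5%). Mtor, the growth kinase, rose from 141 to 160 CPM in Cic-L-KO cortex (log2 fold change 0.18, adjusted p = 1.61e-05 by edgeR) and from 153 to 177 CPM in Cic-L-KO cerebellum (0.21, 0.000109). Grm5, the receptor itself, was lower in Cic-L-KO cortex (-0.27, 2.22e-05), and Rps6kb1, a kinase downstream of Mtor, in Cic-L-KO cerebellum (-0.22, 8.77e-05). In Cic-S-KO cortex and Cic-S-KO cerebellum 0 of 13 passed (6.53% and 8.23% of all genes). In lung 11 were tested (15.7% of all genes called in Cic-S-KO, 4.89% in Cic-L-KO). Agap2 was higher in Cic-S-KO lung (0.88, adjusted p = 0.0197), or 0.43 (0.044) without replicate 5. Pik3cb was higher in Cic-L-KO lung (0.32, 0.00782) and lower in Cic-L-KO cerebellum.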

How the data were processed

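The authors deposited raw read counts per gene for 50789 versioned Ensembl identifiers in 70 samples. Per the labels' protocols, RNA from flash-frozen tissue was polyA-selected; the submitters' processing notes name STAR 2.7 and GRCm38.p6, and the counting program and its use of strand are not given in the sources used here. Symbols and positions came from GENCODE M21 (50725 identifiers matched without version). Counts were fitted per tissue with edgeR 4.0.16 (R 4.3.3: filterByExpr, TMM, robust quasi-likelihood, all 3 genotypes), giving 16695, 16974 and 16643 genes in lung, cortex and cerebellum, and over 46 brain samples (18032 genes) for tissue contrasts. Benjamini-Hochberg adjusted p under 0.05 over all genes was the threshold. CPM and RPKM use TMM library sizes set within each tissue and, for RPKM, the joined length of all annotated exons. GC content is that of the longest annotated transcript. The scripts were tested on simulated data. Members and lists were chosen with earlier results of these data known. Genes named beyond the members were, per list and comparison, at most 2 of smallest p, the 5 most correlated with Fmr1 in each ranking (1 is not reported here), and adjacent genes; Dlg4 was chosen after its values were seen. Alternatives were DESeq2 1.42.0, RLE, other filters (none, or a mean of 50 counts), a non-robust fit, only compared genotypes, blocks, covariates, each set of library numbers (1 to 4, 5 to 8), single libraries left out, and an offset by GC in 20 bins. Of 238 replicate pairs, 0 were identical.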

Additional observations from a re-analysis of the deposited data

Results flagged for a closer look

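In Cic-S-KO cerebellum, replicate 7 held 114 CPM of Cyfip1 against 102 to 107 CPM in the other 6 samples. Its gap to the next sample was 0.63 of the group's range, above the limit of 0.568 for 7 samples. It was the only one of 45 groups of a member's values to exceed its limit, and chance gives about 1 in 20.

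The Cic-L-KO effect on Cyfip2 was -0.259 on the log2 scale in cortex relative to cerebellum, a difference between brain regions that passed its own test (adjusted p = 8.55e-05 by edgeR). The sums of the 4 general neuron markers given with the Cyfip2 results were lower in both regions, and their part in this difference was not tested.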

How the results depend on the processing

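No member reversed sign while past the threshold, and 42 of 690 member values under the alternatives fixed at the outset changed sign. Log2 differences are given as Cic-S-KO or Cic-L-KO against WT, or as Cic-S-KO minus Cic-L-KO (S-L).

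With the GC offset Fmr1 was -0.203 and -0.182 in Cic-L-KO cortex and cerebellum and -0.0193 in lung S-L. Fxr1 was 0.0126, 0.0299 and -0.0172 in lung (Cic-S-KO, Cic-L-KO, S-L) and 0.0208 in Cic-L-KO cortex. Fxr2 was -0.00261 and -0.0135 in Cic-S-KO and Cic-L-KO cortex and -0.0362 in Cic-L-KO cerebellum. Cyfip1 was 0.0324 in Cic-S-KO cortex, and passed in Cic-L-KO cortex (0.11) and cerebellum S-L (-0.107).

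In library numbers 1 to 4 alone, calls were lost for Fmr1 cortex S-L (0.131), Cyfip1 lung S-L (-0.104), Cyfip1 Cic-L-KO cerebellum (0.105), Cyfip2 Cic-S-KO lung (0.138) and Cyfip2 cerebellum S-L (0.161). Fmr1 was -0.0441 in lung S-L and -0.0847 in Cic-S-KO cerebellum. Fxr1 was 0.055, 0.0866 and -0.0316 in lung (same order), 0.00378 in Cic-L-KO cortex and 0.0149 in Cic-S-KO cerebellum. Fxr2 was 0.00563 in Cic-L-KO lung and 0.00818 in Cic-S-KO cerebellum. Cyfip1 was 0.0565 in Cic-S-KO cortex, -0.0277 in the lung of Cic-L-KO and 0.0202 for the Cic-S-KO effect in cortex minus cerebellum, and Cyfip2 -0.0654 in Cic-L-KO lung. In numbers 5 to 8 alone, calls were lost for Fmr1 cortex S-L (0.122), Cyfip1 lung S-L (-0.17) and Cic-L-KO cerebellum (0.0982), Cyfip2 cerebellum S-L (0.126) and the Cyfip2 Cic-L-KO effect in cortex minus cerebellum (-0.229). There Fmr1 and Fxr1 were 0.0333 and 0.0139 for the Cic-S-KO effect in cortex minus cerebellum, Fxr1 0.0351 in cortex S-L, Fxr2 0.0414 in lung S-L, -0.00641 in Cic-L-KO cortex and -0.0209 in Cic-L-KO cerebellum, and Cyfip1 -0.000486 in Cic-S-KO cerebellum.

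DESeq2 passed Fmr1 cerebellum S-L (0.114), Fmr1 WT cortex minus cerebellum (0.121), Fxr1 Cic-L-KO cerebellum (-0.11) and Cyfip1 Cic-L-KO cortex (0.081), and gave -0.000436 and -0.00486 for Fmr1 and Fxr1 lung S-L and 0.00242 for Cyfip1 Cic-S-KO cortex. RLE passed Fmr1 WT cortex minus cerebellum (0.122) and gave -0.000472, -0.00477 and 0.00238 for the last 3. With no low-count filter Cyfip1 lung S-L (-0.137) and Cic-L-KO cerebellum (0.107) were lost, Fxr1 was -0.00332 and 0.00432 in lung and cortex S-L, and Cyfip1 was 0.01 in Cic-S-KO cortex. A mean of at least 50 counts passed Fmr1 cerebellum S-L (0.11), Fxr1 Cic-L-KO cerebellum (-0.106), and Cyfip1 in Cic-L-KO cortex (0.1), cortex S-L (-0.0864) and cerebellum S-L (-0.0961), with Cyfip1 at 0.0139 in Cic-S-KO cortex. Fxr1 in Cic-L-KO cerebellum passed with only the compared genotypes (-0.105; Cyfip1 Cic-S-KO cortex 0.00738) and with a covariate for Y-linked expression (-0.107; Fxr2 lung S-L 5.08e-05) or the set of library numbers (-0.106). The cause of these changes was not tested.

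Single libraries left out, like the test between the sets of numbers and the lung fits without Cic-S-KO replicate 5 an alternative chosen after seeing the data, gave 0.10 to 0.15 for Fmr1 cortex S-L and -0.15 to -0.11 for Cyfip1 lung S-L, both losing the call in some cases. Same-numbered samples of different genotypes did not all deviate together: in no comparison was every pair's correlation over 0.1. Between cortex and cerebellum of 1 genotype, 7 of 7 Cic-S-KO, 7 of 8 WT and 2 of 8 Cic-L-KO pairs were over 0.1, so a shared animal is possible there but not given by the labels. With the replicate block by title number Cyfip1 was 0.00986 in Cic-S-KO cortex, by library number 0.0023 there and 0.121 for Fmr1 cortex S-L, which lost its call, and by genotype and number Fmr1 WT cortex minus cerebellum passed (0.09).

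Genes called (Cic-S-KO, then Cic-L-KO) were 2624 and 817 for lung, 1108 and 7338 for cortex and 1370 and 3580 for cerebellum. In numbers 1 to 4 they were 387 and 62, 33 in Cic-S-KO cortex, and 3 and 1676. In numbers 5 to 8 they were 481 and 181, 444 and 4268, and 2427 and 1558. In Cic-S-KO cortex they were 452 with the GC offset, 732 unfiltered and 654 with only the compared genotypes. The block gave 1285 in Cic-L-KO lung by either number, and by title number 627 and 591 in Cic-S-KO cortex and cerebellum.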
